A study of Mus musculus with 12 samples.

Results

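The 9 genes described here, Casp1, Casp4, Nlrp6, Nlrc4, Naip5, Pycard, Aim2, Gsdmd and Il18, encode inflammasome sensors, their adaptor and caspases, the pore-forming protein gasdermin D and the cytokine IL-18. They were taken by name from the 35869 gene symbols of the deposited count table, whatever their values. Polyadenylated RNA was sequenced from colonoids, cultures of colonic crypt epithelium in Matrigel, of C57BL/6 mice, fed with medium that contained EGF and L-WRN conditioned medium. Groups were unstimulated or received recombinant mouse IL-22 (1 ng/mL), recombinant mouse IL-1b (100 ng/mL) or the combination at the same doses for 12 h. Each of the 4 groups held 3 libraries. The labels name no genetic modification or age. They also leave unstated whether a replicate is its own animal or culture, and p-values therefore reflect only how far these libraries scatter, which may be technical scatter. By its title, the series concerns IL-1 receptor signalling within intestinal epithelial cells.

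Inflammasomes are protein platforms that assemble in the cytosol when a sensor meets a microbial or damage signal. The adaptor ASC, encoded by Pycard, links many sensors to the protease caspase-1, which matures IL-18 and IL-1b and cuts gasdermin D, whose freed fragment forms pores in the plasma membrane. Caspase-11, encoded by Casp4 in mice, binds lipopolysaccharide in the cytosol and also cuts gasdermin D. In gut epithelium the pathway is known for the expulsion of infected cells and for constant production of IL-18 precursor. Most of its steps are set by cleavage of proteins, which RNA counts do not show.

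Library totals lay between 4703902 and 5804033 counts. All 9 genes passed the expression filter that left 13987 genes for testing, with 238 to 1944 counts per library. All 8 epithelial markers (Epcam, Cdh1, Krt8, Krt18, Krt20, Vil1, Cdx1 and Cdx2) were detected in every library. Their summed level was 2370 to 2505 CPM without cytokine, 2487 to 2826 with IL-22, 2235 to 2427 with IL-1b and 2606 to 2705 with both, with 1 of the 8 (Krt20) higher with IL-22 and 2 (Krt18 and Krt20) with both. Of 14 leukocyte markers, 7 to 12 were detected per library, and Tyrobp and Adgre1 were at 0 in all. The leukocyte sum was 12.7 to 15.9 CPM without cytokine, 14.5 to 32.8 with IL-22, 23.6 to 90.4 with IL-1b (90.4 in replicate 1) and 19.8 to 29.2 with both. In bulk RNA of this kind, more cells of a type and more RNA per cell cannot be told apart. Levels are given as CPM, the count relative to the TMM-scaled library total. A log2 fold change carries its standard error, with n = 3 per group. A gene rose, fell or was called where edgeR's quasi-likelihood test gave an adjusted p under 0.05 (Benjamini-Hochberg, over all 13987 genes), and adjusted p-values are from that test unless DESeq2 is named.

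IL-22 raised 4 of the 9 genes, Casp4, Nlrc4, Gsdmd and Il18, and none fell. This is to be read against 22.5% of all genes tested that were called in either direction with IL-22. With IL-1b alone none of the 9 passed, where 0.0715% of all genes did. With IL-1b, 1 of the 9 (Casp4) had an unadjusted p under 0.05, and DESeq2 called that gene. With both cytokines the same 4 genes rose and Nlrp6 fell, where 27% of all genes were called. Both against IL-1b again called those 4 genes higher, and IL-22 against IL-1b called Nlrc4 and Gsdmd higher, each with 26.3% of all genes called. Both against IL-22 called none of the 9 (1 at an unadjusted p under 0.05, none by DESeq2), with 0.0786% of all genes called, 0.0643% higher and 0.0143% lower. Their direction over all genes depended on the fit: 81.8% of those calls were higher, against 31% of 87 by DESeq2, 35.7% of 336 without the expression filter and 27.8% of 72 without IL-22 replicate 1. The median log2 fold change over the 9 genes was 0.20 under IL-22, 0.08 under IL-1b and 0.17 under both, against 0.00, -0.01 and 0.00 over all genes tested. The 3 comparisons share their unstimulated libraries. Where libraries of more than 2 groups are said below to separate, the share of all genes that do so was not counted. Some transcripts listed as markers of other cell types moved with the same treatments. Of the 14 leukocyte markers, 9 were too low to test. Of the 5 tested, only Cd68 was called with IL-22 (1.76 ± 0.27, adjusted p = 0.000362) and with both (1.59 ± 0.27, 0.000637), higher each time. The median log2 fold change of the 5 was 1.21 under IL-22, 0.85 under IL-1b and 1.59 under both. With IL-1b none of the 5 was called (3 at an unadjusted p under 0.05, 2 by DESeq2). Against IL-1b, Cd68 was called higher but Ptprc and Laptm5 lower, both with IL-22 (median of the 5 -0.96) and with the 2 cytokines together (-0.90). Of 3 endothelial markers only Pecam1 passed the expression filter. It fell with IL-22 (-2.29 ± 0.44, adjusted p = 0.00212) and with both (-1.48 ± 0.39, 0.0128). None of 8 fibroblast and muscle markers passed the filter. Cd68 was at 2.18 to 15.5 CPM and Pecam1 at 0.858 to 8.15 CPM over the 12 libraries. Whether these low transcripts came from leukocytes or endothelium was not tested, nor was any part of such cells in the members' changes. The members' changes were small, between 0.82-fold and 1.89-fold for the genes called with both cytokines.

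**Figure D1:**
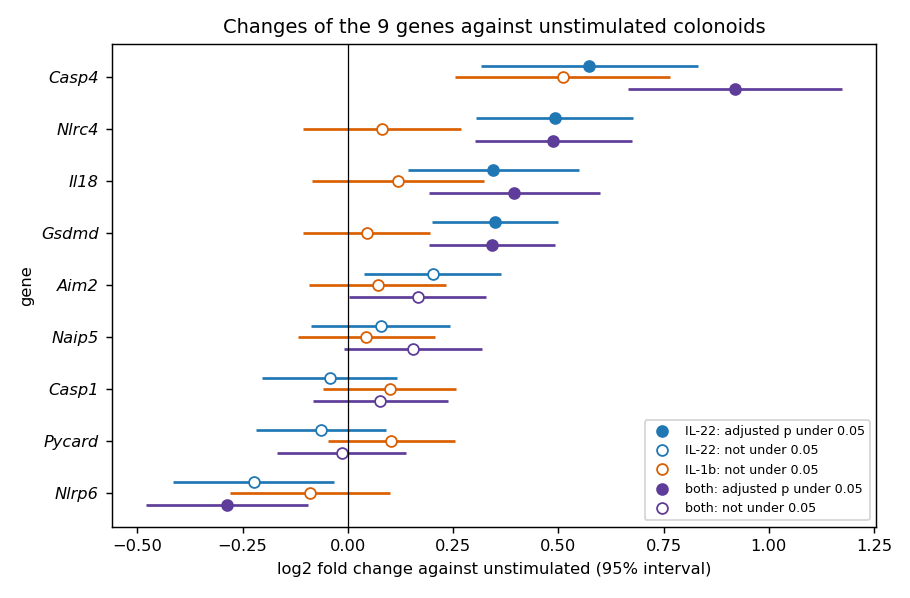
Log2 fold change (x axis) of the 9 genes (y axis) with IL-22, IL-1b or both cytokines against unstimulated colonoids, as points with approximate 95% intervals; filled points have an adjusted p under 0.05. Casp4 stands farthest to the right with both cytokines (0.92) and Nlrp6 farthest to the left (-0.29).

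The regulatory sequences of 3 members are shown because they are the start regions of the member with the largest change, of its neighbour that was not called, and of the cytokine gene. Casp1 (mm10 chromosome 9, 5298517 to 5307265, plus strand) and Casp4 (chromosome 9, 5308828 to 5336783, plus strand) lie in tandem with 1562 bases between them, and of the pair Casp4 was called and Casp1 was not. Il18 lies on the same chromosome (50554827 to 50581840, plus strand). The lines give the 250 bases before the RefSeq start (GRCm38.p6, the build also called mm10), 5′ to 3′ on the gene's strand, at chr9:5308599-5308848 for Casp4 (the first of 2 starts), chr9:5298267-5298516 for Casp1 and chr9:50554450-50554699 for Il18. Capitals mark any match, on either strand, to TTC and GAA with 3 or 4 bases of any kind between them (STAT factors), GGG and CC with 5 bases between them (NF-kB, loose) or GAAA and GAAA with 2 bases between them (interferon regulatory factors).
Casp4: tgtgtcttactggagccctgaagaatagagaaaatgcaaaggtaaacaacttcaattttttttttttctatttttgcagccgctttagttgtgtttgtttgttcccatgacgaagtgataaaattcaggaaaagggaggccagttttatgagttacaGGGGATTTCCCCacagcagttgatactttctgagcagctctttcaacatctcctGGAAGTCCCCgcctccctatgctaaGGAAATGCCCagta
Casp1: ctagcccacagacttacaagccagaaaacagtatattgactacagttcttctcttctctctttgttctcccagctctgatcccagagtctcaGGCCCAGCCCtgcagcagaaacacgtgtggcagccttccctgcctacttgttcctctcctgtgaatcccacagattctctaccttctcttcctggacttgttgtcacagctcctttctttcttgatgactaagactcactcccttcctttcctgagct
Il18: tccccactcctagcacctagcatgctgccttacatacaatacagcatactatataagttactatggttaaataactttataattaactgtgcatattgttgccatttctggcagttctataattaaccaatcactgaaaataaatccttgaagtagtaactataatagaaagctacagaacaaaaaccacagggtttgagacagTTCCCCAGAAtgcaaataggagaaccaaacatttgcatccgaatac

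In Casp4 the capitals are matches to the NF-kB letters, 5 in all, of which 3 overlap in 1 run that begins 93 bases before the start, and the others begin 39 and 14 bases before it. Casp1 held 1 such match and Il18 held none. These letters are common, since 45.8% of the 32851 RefSeq promoters of this length held at least 1 match. The match in Il18 is to the STAT letters with 4 bases between, 46 bases before the start, and 5.85% of all promoters held one. The STAT letters with 3 bases between (7.02% of all promoters) and the interferon regulatory factor letters (2.98%) were in none of the 9 promoters listed for 8 of the members, 2 of which are Casp4 starts that overlap. Gsdmd had no entry. Matches are a description of letters and no sign of binding.

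Among the caspases, Casp4 rose more than any other of the 9 genes with IL-22 and with both cytokines. Its level was 42.4, 48.6 and 52.2 CPM in the unstimulated libraries, 73.7, 71.8 and 67.5 CPM with IL-22, 73.3, 55.3 and 74.7 CPM with IL-1b, and 94.4, 82.7 and 93.5 CPM with both. All 9 stimulated libraries were above the 3 unstimulated ones, and the 3 with both cytokines were above all others. With IL-22 the log2 fold change was 0.57 ± 0.11 (adjusted p = 0.00234), with IL-1b it was 0.51 ± 0.11 (adjusted p = 0.159, unadjusted p = 0.000414) and with both it was 0.92 ± 0.11 (adjusted p = 3.86e-05). The groups with IL-1b and without any cytokine did not overlap for Casp4 alone among the 9, which held for 16.7% of all genes tested. The IL-1b value passed with DESeq2 (0.51, adjusted p = 0.0316), without the expression filter (0.52, 0.000783) and without IL-1b replicate 2 (0.64, 0.0203). The value was 0.46 without IL-1b replicate 1 (adjusted p = 0.584), 0.435 without IL-1b replicate 3 (0.543) and 0.438 without unstimulated replicate 1 (0.656). Leukocyte markers summed to 90.4, 30.3 and 23.6 CPM in IL-1b replicates 1, 2 and 3, and their part in the Casp4 value was not tested.

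The effects of the cytokines on Casp4 added on the log scale within the error. The interaction, which is the departure from that sum, was -0.16 ± 0.15 (95% interval -0.52 to 0.19, adjusted p = 0.979), and 0% of all genes were called for it. DESeq2 called 4 genes for it, none of them among the 9. Both cytokines against IL-1b gave 0.41 ± 0.11 for Casp4 (adjusted p = 0.0110), and against IL-22 0.35 ± 0.11 (adjusted p = 0.258). All 3 libraries with both were above all 3 with IL-22 for Casp4, and also for Casp1 (0.12 ± 0.07, adjusted p = 0.611). Groups did not overlap in this comparison for 12.1% of all genes tested. For Casp4, the effect of IL-22 less that of IL-1b was 0.06 ± 0.11 (95% interval -0.19 to 0.31), so the data bound the difference but do not show the effects to be alike.

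Casp1, the main inflammasome protease, was not called in any comparison by the edgeR test with TMM scaling. It averaged 154 ± 14.2 CPM (SD) without cytokine, 149 ± 3.63 under IL-22, 165 ± 10.6 under IL-1b and 162 ± 6.46 under both. The groups overlapped in all 3 comparisons with unstimulated cultures. IL-22 against IL-1b gave -0.14 ± 0.07 (adjusted p = 0.148) with groups that did not overlap, as held for 40.9% of all genes tested, and was called lower with total counts (-0.22, 0.0371) and with the trend on coverage removed (-0.28, 0.00556). Its log2 fold changes were -0.04 ± 0.07, 0.10 ± 0.07 and 0.08 ± 0.07, with adjusted p of 0.707, 0.640 and 0.440, and 95% intervals from -0.20 to 0.26 over the 3. The count of Casp4 relative to that of Casp1 does not depend on library scaling. This ratio was 0.308, 0.306 and 0.316 in unstimulated libraries, 0.483, 0.479 and 0.464 with IL-22, 0.416, 0.356 and 0.460 with IL-1b and 0.571, 0.534 and 0.561 with both. The ratio was higher in each of the 9 stimulated libraries than in the 3 unstimulated ones, as was the level of Casp4.

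**Figure D2:**
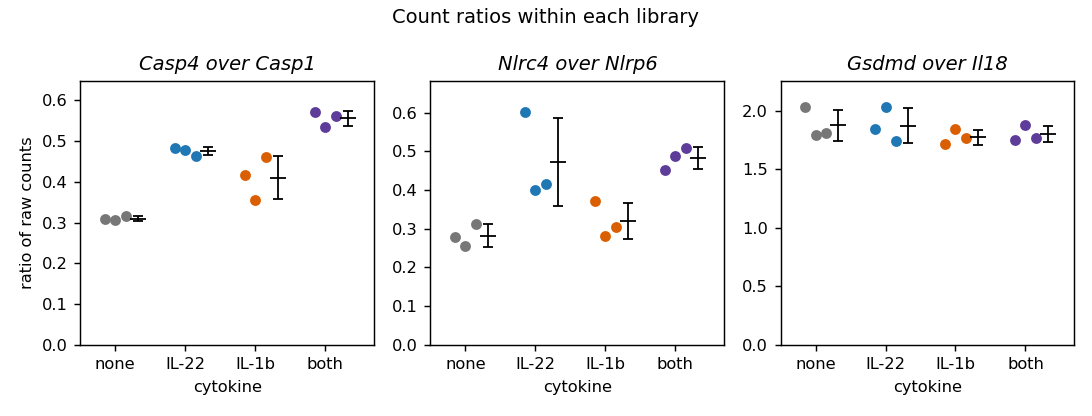
Ratio of raw counts of 2 genes within each library (y axis) by cytokine (x axis), for Casp4 over Casp1, Nlrc4 over Nlrp6 and Gsdmd over Il18; points are libraries, and the black mark and bar are mean and SD (n = 3). The first ratio lies between 0.306 and 0.316 without cytokine and between 0.534 and 0.571 with both, and the third overlaps between all groups.

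The sensors moved in different directions. Nlrc4 (chromosome 17, 74425438 to 74459142, minus strand), which assembles with NAIP proteins on bacterial flagellin and secretion system subunits, was at 96.4, 89.3 and 103 CPM in unstimulated libraries and at 150, 130 and 126 CPM with IL-22. It was at 110, 96.5 and 98.5 CPM with IL-1b and at 128, 143 and 133 CPM with both. The 6 libraries with IL-22 were above the 6 without it. Nlrc4 rose by 0.49 ± 0.08 with IL-22 (adjusted p = 0.000684) and by 0.49 ± 0.08 with both (adjusted p = 0.000542), and stood at 0.08 ± 0.08 with IL-1b (adjusted p = 0.747). The effect of IL-22 was greater than that of IL-1b by 0.41 ± 0.08 (adjusted p = 0.00215), and both cytokines against IL-22 gave -0.00 ± 0.08 (95% interval -0.19 to 0.18).

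Naip5 (chromosome 13, 100211739 to 100246323, minus strand), the flagellin receptor that activates NLRC4, did not pass in any comparison. It ranged from 122 to 137 CPM in unstimulated libraries, 126 to 148 with IL-22, 129 to 140 with IL-1b and 137 to 153 with both. Its log2 fold change with both was 0.16 ± 0.07 (adjusted p = 0.119). Naip5 belongs to a multigene family with Naip1, Naip2 and Naip6. How the authors' counting treated reads shared within the family is not given in the sources used here, so its count is uncertain. In the same table Naip1 rose with IL-22 (0.32 ± 0.06, adjusted p = 0.00214) and with both (0.29 ± 0.06, 0.00324), Naip2 rose with IL-22 (0.22 ± 0.06, 0.0118) and stood at 0.16 ± 0.06 with both (0.0510), and Naip6 stood at 0.18 ± 0.08 (0.142) and 0.07 ± 0.08 (0.569). These 3 family members were named after their values were seen.

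Nlrp6 (chromosome 7, 140920902 to 140929192, plus strand), a sensor described in colonocytes and goblet cells, had the highest count of the 9 and was the only one of them to fall. It was at 346, 348 and 329 CPM in unstimulated libraries, 248, 325 and 304 CPM with IL-22, 297, 342 and 323 CPM with IL-1b and 284, 292 and 263 CPM with both. The 3 libraries with both were below all 3 unstimulated ones, and IL-22 replicate 1 was lowest of the 12. With both cytokines Nlrp6 fell by 0.29 ± 0.08 (adjusted p = 0.0202), with IL-22 it stood at -0.22 ± 0.08 (adjusted p = 0.0685) and with IL-1b at -0.09 ± 0.08 (adjusted p = 0.727). Leaving out unstimulated replicate 1 (adjusted p = 0.0614), unstimulated replicate 2 (0.0689) or IL-1b+IL-22 replicate 3 (0.0874) ended the call with both. The value with IL-22 passed without IL-22 replicate 2 (-0.30, adjusted p = 0.0310) and with total counts as the only scaling (-0.28, 0.0159), and without IL-22 replicate 1 it was -0.12 (adjusted p = 0.254). Both against IL-1b gave -0.20 ± 0.08 for Nlrp6 (adjusted p = 0.0975). These groups did not overlap, as held for 44.4% of all genes tested. That value was called with total counts (0.0227), without the expression filter (0.037) and with the trend on coverage removed (0.0196). It was also called with only the groups compared (0.0327) and without IL-22 replicate 1 (0.0283). The 6 goblet cell markers summed to between 1970 and 1994 CPM without cytokine, 1835 and 2134 with IL-22, 1706 and 1952 with IL-1b and 1823 and 1960 with both, and their part in the result was not tested.

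The ratio of these sensors separated the libraries by IL-22, and the share of other gene pairs that do so was not counted. The count of Nlrc4 over that of Nlrp6 was 0.278, 0.256 and 0.313 without cytokine, 0.603, 0.401 and 0.415 with IL-22, 0.371, 0.282 and 0.305 with IL-1b and 0.452, 0.489 and 0.508 with both. Every library with IL-22 was above every library without it.

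Aim2 (chromosome 1, 173350879 to 173466040, plus strand), the sensor of DNA in the cytosol, ranged from 129 to 144 CPM in unstimulated libraries, 145 to 168 with IL-22, 135 to 152 with IL-1b and 150.1 to 160.5 with both. All libraries with IL-22 were above the unstimulated ones, as held for 34.7% of all genes tested with IL-22 alone and 42.3% with both. Among the 9 genes, 6 did not overlap with IL-22 (Casp4, Nlrp6, Nlrc4, Aim2, Gsdmd and Il18) and 7 with both (these and Naip5). Its log2 fold change was 0.20 ± 0.07 with IL-22 (adjusted p = 0.0543), 0.07 ± 0.07 with IL-1b (adjusted p = 0.744) and 0.17 ± 0.07 with both (adjusted p = 0.0942). None of these passed, though with IL-22 it did without IL-22 replicate 3 (0.27, adjusted p = 0.0152) and without the expression filter (0.21, 0.0312). Pycard (chromosome 7, 127989708 to 127993867, minus strand), the adaptor gene, held between 94.1 and 114 CPM in all 12 libraries. Its log2 fold changes were -0.06 ± 0.07 under IL-22, 0.10 ± 0.07 under IL-1b and -0.01 ± 0.07 under both, with 95% intervals from -0.22 to 0.25 over the 3. IL-22 against IL-1b gave -0.17 ± 0.07 for Pycard (adjusted p = 0.0794, unadjusted p = 0.0248) with groups that did not overlap. It was called lower with total counts (-0.24, adjusted p = 0.0215), with the trend on coverage removed (-0.21, 0.0296) and without unstimulated replicate 1 (-0.17, 0.0453). Of its 3800 exon bases, 485 are shared with Gm45205 on the other strand, and the strand used in counting is not given in the sources used here, so its count is uncertain.

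**Figure D3:**
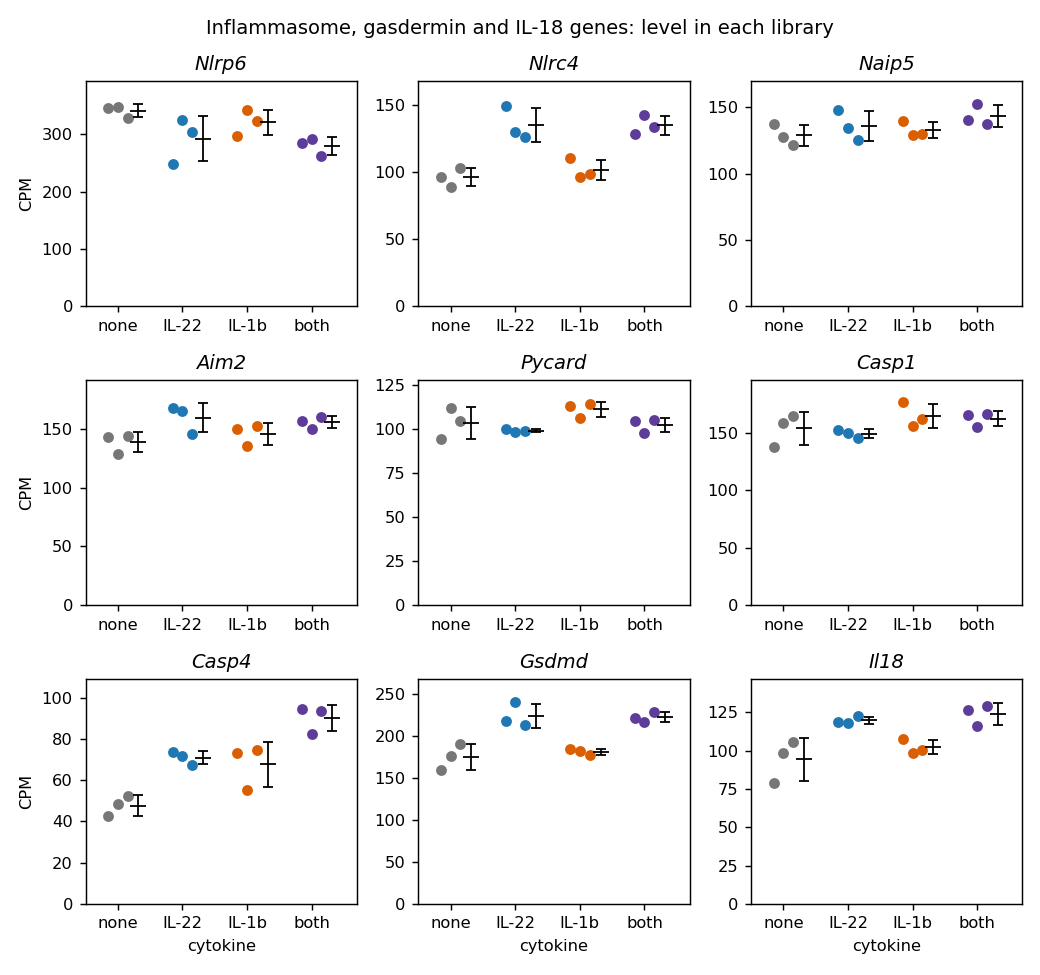
CPM (y axes, from 0) of the 9 genes in each library by cytokine (x axes); points are libraries, and the black mark and bar are mean and SD (n = 3). Casp4, Nlrc4, Gsdmd and Il18 are higher in the 6 libraries with IL-22 than in the 3 unstimulated ones, Casp1 and Pycard overlap between these groups, and Nlrp6 is lower with both cytokines.

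The effector genes Gsdmd and Il18 rose together. Gsdmd (chromosome 15, 75862327 to 75867408, plus strand) was at 159.8, 176 and 191 CPM in unstimulated libraries, 218, 240.3 and 213 CPM with IL-22, 184, 182 and 177 CPM with IL-1b and 222, 217 and 229 CPM with both. The 6 libraries with IL-22 were above the 6 without it, a separation whose share over all genes was not counted. Gsdmd rose by 0.35 ± 0.06 with IL-22 (adjusted p = 0.00163) and by 0.34 ± 0.06 with both (adjusted p = 0.00147), and stood at 0.04 ± 0.07 with IL-1b (adjusted p = 0.829). The effect of IL-22 exceeded that of IL-1b by 0.31 ± 0.06 (adjusted p = 0.00358), or by 0.18 with the trend on coverage removed (0.0114).

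Il18, whose product is made as a precursor and released after cleavage, was at 78.8, 98.6 and 106 CPM in unstimulated libraries, 119, 118 and 122 CPM with IL-22, 108, 98.8 and 101 CPM with IL-1b and 127, 116 and 129 CPM with both. The libraries with IL-22 were again above the others, with no share over all genes counted, and unstimulated replicate 1 was the lowest. Il18 rose by 0.35 ± 0.09 with IL-22 (adjusted p = 0.0121) and by 0.40 ± 0.09 with both (adjusted p = 0.00448), and stood at 0.12 ± 0.09 with IL-1b (adjusted p = 0.665). The effect of IL-22 less that of IL-1b was 0.23 ± 0.09 and did not pass (adjusted p = 0.0705). It was called without the expression filter (0.23, 0.0336), with only the groups compared (0.23, 0.0222) and without unstimulated replicate 1 (0.22, 0.0195). With the trend on coverage removed it was 0.09 (0.452). These 2 groups did not overlap, as held for 40.9% of all genes tested. Both cytokines against IL-1b gave 0.28 ± 0.09 (adjusted p = 0.0310), a call that was lost without IL-1b replicate 2 (adjusted p = 0.102) or 3 (0.102), IL-1b+IL-22 replicate 1 (0.0895) or 3 (0.109), and with total counts as the only scaling (0.0868). For both against IL-1b, 44.4% of all genes tested did not overlap, and neither did Il18. The count of Gsdmd over that of Il18 was 1.875 ± 0.134 (SD) without cytokine, 1.87 ± 0.146 under IL-22, 1.77 ± 0.0650 under IL-1b and 1.80 ± 0.0675 under both, with overlap between all groups.

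Fold changes over all genes moved with how densely a gene was covered. Under IL-22 the genes with fewer than 0.02 counts per exon base (3193 genes) had a median log2 fold change of -0.18, which was -0.03 for the 5503 genes with 0.02 to 0.1 counts per exon base, 0.07 for the 4116 genes with 0.1 to 0.4 and 0.13 for the 444 genes with 0.4 or more. Il18, Casp1 and Gsdmd had 0.552, 0.548 and 0.437 counts per exon base, Nlrp6 0.318 and Casp4 0.0963. With the trend removed, Il18 stood at 0.22 with IL-22 (adjusted p = 0.0789) and 0.28 with both (adjusted p = 0.0262), and at 0.15 for both against IL-1b (adjusted p = 0.218). Gsdmd kept its calls at 0.23 with IL-22 (adjusted p = 0.00291) and 0.23 with both (0.00231), Casp4 stood at 0.56 and 0.90 and Nlrc4 at 0.46 and 0.45, all called. Nlrp6 then fell with IL-22 (-0.33, adjusted p = 0.0138) as well as with both (-0.39, 0.00423), and Casp1 stood at -0.17 with IL-22 (adjusted p = 0.0709), at -0.04 with both (0.668) and at -0.28 for IL-22 against IL-1b (0.00556, called). The part of this trend in the members' changes was not tested further.

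**Figure D4:**
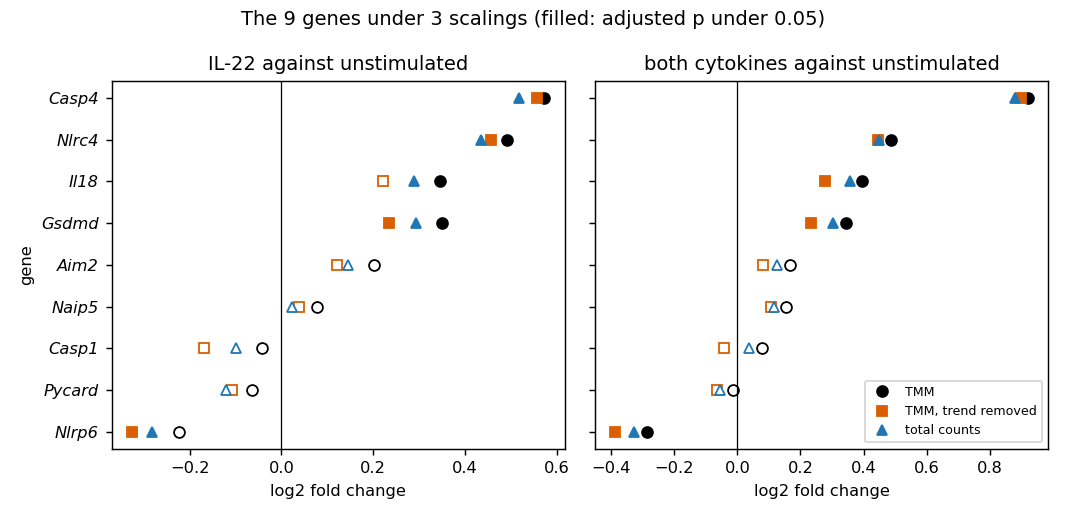
Log2 fold change (x axes) of the 9 genes (y axis) with IL-22 and with both cytokines against unstimulated, under TMM, TMM after a correction for count per exon base, and total counts; filled symbols have an adjusted p under 0.05. Il18 with IL-22 moves from 0.35 to 0.22 with the trend removed and is no longer called, while Nlrp6 moves from -0.22 to -0.33 and is called.

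Levels between genes are compared per kilobase of exon. Over the 12 libraries Il18 had the highest mean with 107 CPM per kilobase, followed by Casp1 with 105, Gsdmd with 84.5, Nlrp6 with 60.7, Aim2 with 42.9, Pycard with 27.4, Naip5 with 26.0, Nlrc4 with 24.4 and Casp4 with 18.6. Il18 (76.4 to 125 over the libraries) and Casp1 (92.1 to 118) overlapped, as did Pycard (24.8 to 30.0), Naip5 (23.4 to 29.3), Nlrc4 (18.6 to 31.1) and Casp4 (11.4 to 25.5). The level per kilobase of Il18 was at or above that of 98.8% of the genes tested, and that of Casp4 at or above 64.8%. Exon length counts every annotated exon base, so genes with long, rarely used exons are placed too low.

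Across the 12 libraries the log2 levels of Gsdmd and Il18 had a Pearson correlation of 0.918, Nlrc4 and Gsdmd one of 0.878, Casp1 and Pycard 0.784 and Nlrp6 and Nlrc4 -0.847. These are descriptions over libraries that share their groups. The genes whose pattern was most like that of a member called against unstimulated, among 10186 with 10 CPM or more, were Ngly1 (r = 0.975) and Mydgf (0.974) for Casp4, and Dhrs9 (0.975) and Pkp2 (0.971) for Nlrc4. For Gsdmd they were Serpinb1a (0.993) and Ly6a (0.983), for Il18 Aqp4 (0.980) and Nt5c (0.962), and for Nlrp6 Kctd17 (0.963) and Prdm9 (0.954).

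Of 68 other genes of the pathway, 47 were tested; 12 rose and 5 fell with IL-22, none was called with IL-1b (8 at an unadjusted p under 0.05, 1 by DESeq2), and 13 rose and 6 fell with both. Over all genes tested, 11.9% rose and 10.6% fell with IL-22, 0.0715% were called with IL-1b, and 13.7% rose and 13.3% fell with both. The median log2 fold change of the 47 was 0.04, 0.05 and 0.10, against 0.00, -0.01 and 0.00 over all genes. Il1b had no count in any library, where 3 counts in a library stand for 0.499 to 0.665 CPM, and Nlrp3, a sensor studied mostly in macrophages, had 2 counts over all libraries; both were named after their values were seen.

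Of 12 other sensor and adaptor genes tested, 5 rose and 1 fell with IL-22 (22.5% of all genes called), and 4 rose and 2 fell with both (27%). Nlrp1b, another inflammasome sensor gene, fell by 0.59 ± 0.14 with IL-22 (adjusted p = 0.00671) and by 0.65 ± 0.14 with both (0.00287), and stood at 0.11 ± 0.13 with IL-1b (0.779). Nod2, a sensor of bacterial muramyl dipeptide, had 17, 13 and 5 counts without cytokine, 9, 12 and 8 with IL-22, 25, 33 and 28 with IL-1b and 22, 18 and 34 with both. It rose with both (1.24 ± 0.37, adjusted p = 0.0242) and stood at 1.26 ± 0.37 with IL-1b (0.318). Leaving out unstimulated replicate 2 (0.0562), unstimulated replicate 3 (0.0810) or IL-1b+IL-22 replicate 3 (0.133) ended the call. Nod1, a sensor of another peptidoglycan fragment, fell with both (-0.58 ± 0.17, adjusted p = 0.0237), a call that ended when unstimulated replicate 1 (0.114), unstimulated replicate 2 (0.0573) or IL-1b+IL-22 replicate 3 (0.102) was left out, and with the trend on coverage removed (0.0844).

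Of 6 other caspase and inhibitor genes tested, 2 rose with IL-22 (22.5% of all genes called, 11.9% higher) and with both (27%, 13.7% higher). Casp8, an initiator of apoptosis that also acts in inflammasome signalling, was at 140 ± 14.3 CPM (SD) without cytokine, 201 ± 13.1 under IL-22, 144 ± 6.04 under IL-1b and 199.7 ± 7.12 under both. It rose by 0.52 ± 0.07 with IL-22 (adjusted p = 0.000184) and by 0.52 ± 0.07 with both (0.000145). Serpinb1a, a protease inhibitor gene that was also the gene most like Gsdmd in pattern, rose by 0.37 ± 0.07 (0.00267) and by 0.38 ± 0.07 (0.00175).

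Of 10 other genes for gasdermins and membrane rupture or repair, 1 rose and 3 fell with IL-22 (22.5% of all genes called), and 1 rose and 2 fell with both (27%). Gsdmc2, a gasdermin C gene, was at 149, 157 and 131 CPM without cytokine, 119, 99.01 and 114 CPM with IL-22, 116, 104 and 80.5 CPM with IL-1b and 63.8, 71.7 and 74.2 CPM with both. All 9 libraries with cytokine were below all 3 without, and those with both were lowest. Gsdmc2 fell by 0.40 ± 0.11 with IL-22 (adjusted p = 0.0231) and by 1.06 ± 0.12 with both (2.35e-05), and stood at -0.55 ± 0.11 with IL-1b (0.156, and 0.00901 by DESeq2). Leaving out unstimulated replicate 1 (0.0640), unstimulated replicate 2 (0.0977) or IL-22 replicate 2 (0.104) ended the call with IL-22. Gsdmc3 fell by 0.58 ± 0.11 with IL-22 (adjusted p = 0.00247) and by 1.05 ± 0.12 with both (2.35e-05), and stood at -0.41 ± 0.11 with IL-1b (0.294). Gsdmc, Gsdmc2, Gsdmc3 and Gsdmc4 are similar copies between which reads could be split, so these counts are uncertain.

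The ratio of Gsdmc2 to Gsdmd counts was 0.838 ± 0.133 (SD) without cytokine, 0.497 ± 0.0739 under IL-22, 0.552 ± 0.0896 under IL-1b and 0.314 ± 0.0232 under both. Chmp4b, a gene of the ESCRT machinery that repairs membranes, rose with IL-22 (0.23 ± 0.06, adjusted p = 0.0148) and with both (0.21 ± 0.06, 0.0192), but was not called with the trend on coverage removed (0.0760 and 0.0891). Chmp4b was not called with IL-22 when unstimulated replicate 1 (0.0510), unstimulated replicate 2 (0.0648) or IL-22 replicate 2 (0.0645) was left out, nor with both without unstimulated replicates 1 (0.0632) or 2 (0.0719) or IL-1b+IL-22 replicate 1 (0.0531) or 3 (0.0741).

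**Figure D5:**
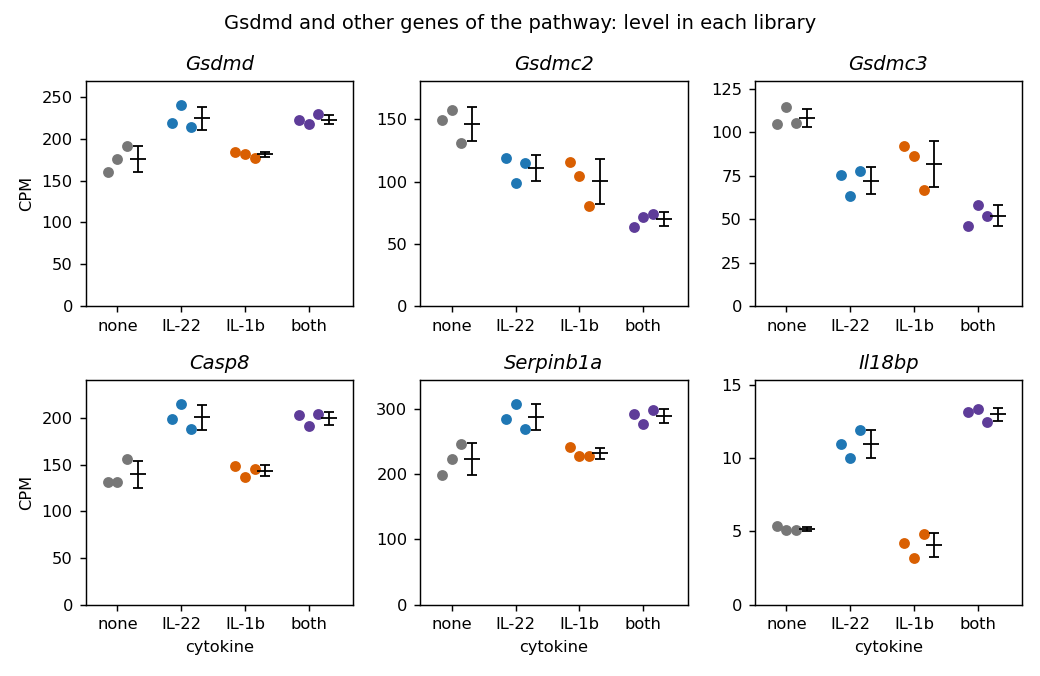
CPM (y axes, from 0) of Gsdmd, Gsdmc2, Gsdmc3, Casp8, Serpinb1a and Il18bp in each library by cytokine (x axes); points are libraries, and the black mark and bar are mean and SD (n = 3). Gsdmc2 falls from 131 to 157 CPM without cytokine to 63.8 to 74.2 CPM with both, whereas Gsdmd, Casp8, Serpinb1a and Il18bp are higher with IL-22.

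Of 7 genes of IL-1 family ligands, receptors and inhibitors tested, 2 rose with IL-22, 3 rose with both and none fell. Among all genes tested, 11.9% rose and 10.6% fell with IL-22, and 13.7% rose and 13.3% fell with both. Il18bp, whose secreted product binds and blocks IL-18, was at 5.35, 5.09 and 5.12 CPM without cytokine, 10.9, 9.97 and 11.9 CPM with IL-22, 4.23, 3.198 and 4.82 CPM with IL-1b and 13.1, 13.3 and 12.4 CPM with both. All 6 libraries with IL-22 were above the other 6, and the 3 with IL-1b alone were lowest. The share of all genes with this separation was not counted. Il18bp rose by 1.07 ± 0.17 with IL-22 (adjusted p = 0.000593) and by 1.32 ± 0.17 with both (7.81e-05), and stood at -0.34 ± 0.19 with IL-1b (0.626).

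The count of Il18bp over that of Il18 was 0.0560 ± 0.0104 (SD) without cytokine, 0.0912 ± 0.00647 under IL-22, 0.0399 ± 0.00779 under IL-1b and 0.105 ± 0.00952 under both. Every library with IL-22 was above every library without it, and the share of other gene pairs that do so was not counted. Of the 3026 exon bases of Il18bp, 80 are shared with Numa1 on the other strand, so its count is uncertain. Sigirr, a receptor that dampens IL-1 family signals, rose with both (0.27 ± 0.07, adjusted p = 0.00697) and with IL-22 (0.22 ± 0.07, 0.0288), the latter a call kept in 7 of the 12 fits that left out 1 library and lost with DESeq2 (0.0820). Without unstimulated replicate 1, 2 or 3 the adjusted p of Sigirr with IL-22 was 0.0554, 0.0550 and 0.106, and without IL-22 replicate 2 or 3 it was 0.109 and 0.0719. Il33, an alarmin gene, had 10, 23 and 38 counts without cytokine and 46, 41 and 234 with both. Its call with both (2.35 ± 0.64, adjusted p = 0.0141) was lost without IL-1b+IL-22 replicate 3 (0.99, 0.117) or unstimulated replicate 1 (1.97, 0.0620).

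Of 5 genes of guanylate-binding proteins and immunity-related GTPases tested, which act on the caspase-11 and AIM2 inflammasomes, none was called with IL-22 (2 at an unadjusted p under 0.05, none by DESeq2) and 2 fell with both. Among all genes tested, 22.5% were called with IL-22 and 27% with both (13.3% lower). With IL-1b none of the 5 was called (3 at an unadjusted p under 0.05, none by DESeq2). IL-22 against IL-1b called 3 of the 5 lower (3 called by DESeq2), with 12.5% of all genes called lower. Both against IL-1b also called 3 lower (2 called by DESeq2), with 13% of all genes called lower. For the interaction none was called (3 at an unadjusted p under 0.05, none by DESeq2). Igtp was at 8.02, 9.46 and 11.8 CPM without cytokine, 4.34, 7.97 and 5.85 CPM with IL-22, 22.4, 15.99 and 12.6 CPM with IL-1b and 3.23, 5.49 and 3.86 CPM with both. Libraries with IL-1b alone were highest and those without cytokine lay between them and those with IL-22. Igtp fell with both (-1.20 ± 0.30, adjusted p = 0.00793) and stood at 0.80 ± 0.25 with IL-1b (0.348). IL-1b replicate 1 had the highest Igtp level and the highest sum of leukocyte markers, whose part in the Igtp value was not tested. Irgm2 fell with both (-0.99 ± 0.21, adjusted p = 0.00329). Igtp and Irgm2 share 162 exon bases, so their counts are uncertain.

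Of 7 genes of factors that induce inflammasome genes, 2 rose with IL-22 (22.5% of all genes called, 11.9% higher) and 3 with both (27%, 13.7% higher). Irf8 rose by 0.44 ± 0.10 with IL-22 (adjusted p = 0.00626) and by 0.50 ± 0.10 with both (0.00230), and Rela, an NF-kB subunit gene, rose by 0.36 ± 0.08 (0.00391) and 0.41 ± 0.08 (0.00123). Irf1 rose with both (0.25 ± 0.08, adjusted p = 0.0240), but was not called with the trend on coverage removed (0.0826) or without unstimulated replicate 1 (0.0821) or 2 (0.0948) or IL-1b+IL-22 replicate 2 (0.0633) or 3 (0.0522). Of its 3976 exon bases, 135 are shared with Gm17334 on the other strand, so the count of Irf1 is uncertain.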

How the data were processed

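The authors deposited whole-number counts per gene symbol with no normalization. Libraries were made with a strand-marking kit, per the labels' protocols, and the submitters' processing notes name build mm10. Aligner, counter, counting strand and annotation: not given in the sources used here. Members, lists and alternatives were chosen with earlier results of these data known. Genes passing filterByExpr were tested with edgeR 4.0.16 (R 4.3.3): TMM scaling (factors 0.957 to 1.04), 1 mean per group fitted on all 12 libraries with 8 residual degrees of freedom, glmQLFTest, two-sided, Benjamini-Hochberg over 13987 genes, for 7 comparisons. Standard errors were derived from the size of each log2 fold change and its F statistic, and 95% intervals from 8 degrees of freedom, so both are approximate. Named genes were the 9 members, up to 3 genes of each class of the wider list (called against unstimulated, ranked by change with both cytokines), and for each called member the 2 most correlated genes (log2 CPM, prior count 2). For 1 gene that the rule selects, the result is not reported here. Positions and exon lengths came from the GENCODE annotation of mm10 (26704 symbols matched directly, 546 by synonym), and promoters from RefSeq. The code was checked on simulated counts, with changes planted for IL-22 against unstimulated and none for IL-1b or the interaction. It called 46 of 100 genes planted at 1.25-fold, 83 of 100 at 1.5-fold and 3 of 13787 with no change. Alternatives were DESeq2 1.42.0, total counts, 2 filters (every gene with 1 count, or 1 CPM in 6 libraries), a replicate block, only the groups compared, each library left out, and a lowess correction (span 0.3) for count per exon base.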

Additional observations from a re-analysis of the deposited data

How the results depend on the processing

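Genes called were 1992 to 3350 with IL-22 over fits that left out 1 library (1992 without unstimulated replicate 2) and 2345 to 3795 for IL-22 against IL-1b (2345 without IL-1b replicate 3). With IL-1b, 32 genes were called by DESeq2, 212 without the expression filter and 9 to 28 with 1 library left out (28 without unstimulated replicate 3), and the members called were 1, 1 and 0 to 1. For both against IL-22, genes called were 87 by DESeq2, 336 without the filter (1 member), 6 with only the groups compared and 3 to 72 with 1 library left out (72 without IL-22 replicate 1, 3 without IL-1b+IL-22 replicate 3). For the interaction they were 4 by DESeq2, 50 without the filter and 0 to 1 with 1 library left out (1 without IL-1b replicate 1). Members called for IL-22 against IL-1b were 4 with total counts, 4 with the trend removed and 2 to 4 with 1 library left out.

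Same-numbered libraries' deviations correlated at -0.188 to 0.18 over 18 pairs, and 2 of 12 libraries correlated best with their own number. With 3 libraries per group, these values cannot decide whether same-numbered libraries share an animal or batch. With the replicate block, both against IL-22 called 7 genes, and Nlrp6 with IL-22 was called (-0.23, adjusted p = 0.0454).

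Values near 0 changed sign, none of them called. After the lowess correction for count per exon base, Nod2 (0.12) and Il33 (0.098) with IL-22, Casp1 (-0.041) with both and Naip5 (-0.00256) for IL-22 against IL-1b changed sign. With total counts, Nod1 (-0.036) with IL-22, Nlrc4 (0.011) and Gsdmd (0.00909) for both against IL-22 and Casp4 (-0.011) and Naip5 (-0.040) for IL-22 against IL-1b changed sign. With the replicate block, Il33 (0.081) with IL-22 changed sign. With IL-22, ranges over the left-out libraries were -0.12 to 0.00698 for Casp1, -0.44 to 0.25 for Nod2, -0.13 to 0.20 for Nod1 and -0.41 to 0.51 for Il33. With IL-1b, ranges over the left-out libraries were -0.013 to 0.11 for Gsdmd, -0.069 to 0.26 for Nod1, -0.011 to 0.14 for Serpinb1a, -0.066 to 0.00335 for Sigirr and -0.18 to 0.062 for Irf8. With both, ranges over the left-out libraries were -0.079 to 0.048 for Pycard. For both against IL-22, ranges over the left-out libraries were -0.17 to 0.010 for Nlrp6, -0.053 to 0.069 for Nlrc4 and -0.042 to 0.038 for Gsdmd. For both against IL-1b, ranges over the left-out libraries were -0.069 to 0.024 for Casp1. For IL-22 against IL-1b, ranges over the left-out libraries were -0.069 to 0.14 for Casp4 and -0.026 to 0.085 for Naip5. For the interaction, ranges over the left-out libraries were -0.035 to 0.087 for Casp1, -0.079 to 0.11 for Nlrp6, -0.029 to 0.097 for Naip5, -0.12 to 0.00276 for Pycard, -0.12 to 0.00357 for Gsdmd and -0.16 to 0.039 for Il18. By total counts, the share of calls that were higher went from 52.8% to 37.7% with IL-22, from 50.8% to 39.8% with both, from 50.5% to 36.8% for both against IL-1b, from 52.3% to 34.8% for IL-22 against IL-1b and from 81.8% to 64.3% for both against IL-22. The cause was not tested.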
